A study of Mus musculus with 10 samples.

Results

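The genes described here are the 5 that make up the ISG15 conjugation pathway in the mouse: Isg15, the modifier itself, Uba7, its activating enzyme (E1), Ube2l6, its conjugating enzyme (E2), Herc6, its ligase (E3), and Usp18, the protease that removes it. They were picked by symbol and by role, and all 5 were found among the 20813 genes measured. The RNA came from 10 leukemic spleens of C57BL/6 mice that had received a leukemia of T cell precursors (T-ALL) by intravenous transfer after sub-lethal irradiation. Every leukemia carried a conditional Sirt1 knockout allele, the controls included. The 5 samples labelled Sirt1-deleted (replicates 7, 8, 10, 11 and 12) came from mice given 3 mg of tamoxifen per mouse in corn oil by intraperitoneal injection, and the 5 control samples (replicates 2, 3, 4, 5 and 6) from mice given corn oil alone. Drug and genotype label divide the samples in the same way, so their effects cannot be told apart. The labels name neither the Cre driver nor the deleted exons, and they do not say whether the transplanted cells came from 1 primary tumour or several. P-values therefore measure the spread between these samples. SIRT1 is a NAD-dependent deacetylase, and the comparison addresses how T-ALL transcription differs once its gene is deleted. The gene-level value of Sirt1 ranged from 1715 to 2097 normalized counts in the labelled Sirt1-deleted samples and from 1735 to 1909 in controls (limma adjusted p = 0.568), which left the groups overlapping, and the deleted group is therefore named by its label.

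ISG15 is a small protein built like a pair of fused ubiquitins, and it is joined to other proteins through its C-terminal glycine by an E1, E2 and E3 cascade that parallels the one for ubiquitin. All the enzymes of the cascade are known to be induced by type I interferon, which acts through the transcription factor complex ISGF3 at interferon-stimulated response elements (ISREs) in promoters. USP18 cleaves ISG15 from its targets and also binds the interferon receptor subunit IFNAR2, where it dampens signalling. Free ISG15 can be secreted and can act on lymphocytes through the integrin LFA-1.

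The start-proximal sequences of the members are shown because the ISRE is the element through which the pathway is known to be induced, and the members differed in whether they held its pattern. Of the 5 genes, 4 were matched by symbol in the RefSeq promoter table (build GRCm38.p6), and Usp18 was not matched. Windows of 250 bases before the start were searched on both strands for the ISRE pattern GAAANNGAAA and for the shorter core pattern of the interferon regulatory factors, AANNGAAA, which every ISRE match also contains. Each line runs 5′ to 3′ on the strand of its gene, with matched bases in capitals. The 150 bases before the start are given for Isg15 (chr4:156200819-156200968, minus strand), Ube2l6 (chr2:84798678-84798827, plus strand) and Herc6 (chr6:57580842-57580991, plus strand), and 30 bases around the match are given for Uba7 (chr9:107975529-107975558, plus strand).
Isg15: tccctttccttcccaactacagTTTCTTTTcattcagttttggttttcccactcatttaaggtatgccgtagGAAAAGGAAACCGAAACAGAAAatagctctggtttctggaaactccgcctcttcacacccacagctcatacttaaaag
Uba7: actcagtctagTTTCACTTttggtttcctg
Ube2l6: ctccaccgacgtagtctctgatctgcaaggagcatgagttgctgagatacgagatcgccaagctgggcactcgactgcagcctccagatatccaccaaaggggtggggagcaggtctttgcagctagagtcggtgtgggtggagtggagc
Herc6: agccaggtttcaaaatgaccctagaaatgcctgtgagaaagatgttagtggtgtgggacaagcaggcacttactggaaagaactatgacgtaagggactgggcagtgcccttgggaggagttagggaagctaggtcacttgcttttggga
Isg15 held 3 overlapping ISRE matches, which lay 78 to 69, 72 to 63 and 66 to 57 bases before the start and read GAAAAGGAAA, GAAACCGAAA and GAAACAGAAA. It also held 4 matches to the core pattern, 3 of them inside the ISRE matches. Uba7 held 1 core match, on the minus strand 27 to 20 bases before its RefSeq start. That start lies downstream of the one in the GENCODE M21 annotation, at which the gene begins before the match. Neither Ube2l6 nor Herc6 held a match to either pattern. Among all 32851 windows in the table, 2.98% held the ISRE pattern and 21.31% the core pattern. A match is a description of the letters in the window and not evidence of binding.

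**Figure D1:**
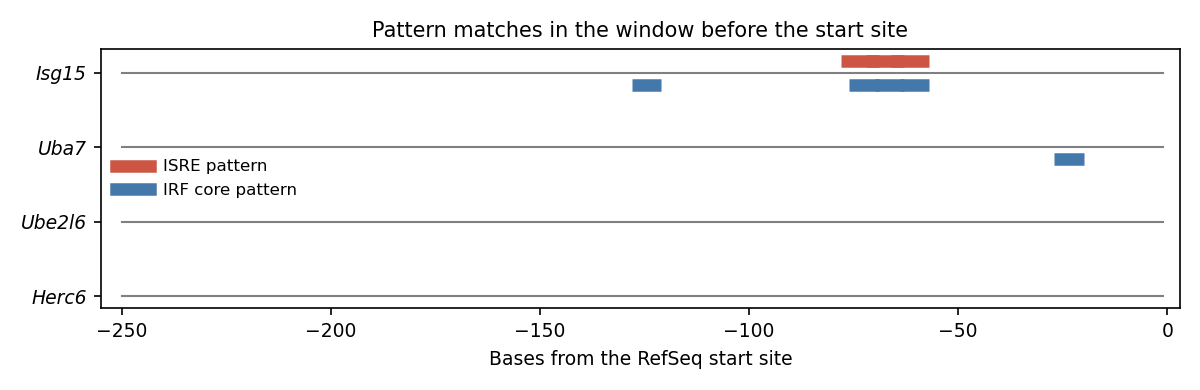
Positions of pattern matches (coloured bars; ISRE above, core pattern below the line) in the window before the RefSeq start site of the 4 matched genes, with distance from the start in bases on the x axis. The 3 overlapping ISRE matches of Isg15 lie between 78 and 57 bases before the start, and Ube2l6 and Herc6 have no match.

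Of the 5 members, 4 passed the test with higher values in the labelled Sirt1-deleted samples and none with lower values: Isg15 by 4.67-fold, Usp18 by 3.55-fold, Herc6 by 1.54-fold and Uba7 by 1.48-fold. Ube2l6 did not pass the test. Values are deposited normalized counts (reads per gene after the authors' correction for library size), differences are on the scale of log2(value + 1), and a gene was called when the Benjamini-Hochberg adjusted p of limma over all tested genes was under 0.05. Across the 15276 genes with a mean of at least 10, 16.8% were called higher and 19.4% lower by this rule. Upper-quartile rescaling turned this split from 2562 higher and 2956 lower to 3162 higher and 2270 lower, and left the calls of the members as they were. With a log2 difference of at least 1 required as well, 3.95% of all genes were called higher, against 2 of the 5 members, Isg15 and Usp18.

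Isg15, the modifier, lies at chr4:156199424-156200818 on the minus strand (GRCm38; ENSMUSG00000035692.6) and has 2 exons. It measured 1601, 1399, 1050, 2459 and 1693 normalized counts in labelled Sirt1-deleted replicates 7, 8, 10, 11 and 12. In control replicates 2 to 6 it measured 322, 228, 310, 390 and 489. The lowest labelled Sirt1-deleted sample, replicate 10, exceeded the highest control, replicate 6, and replicate 11 was the highest of all. The means were 1640 ± 520 and 348 ± 97.8 (SD, n = 5 each), a log2 difference of 2.22 (SE 0.22, 95% interval 1.75 to 2.70, limma adjusted p = 1.01e-04). An exact two-sided permutation of the samples gave p = 0.00794, the smallest that 5 against 5 can give. By size of rise, 0.399% of the tested genes ranked above it. In bulk tissue, a change in the share of cells that express a gene and a change in RNA per cell cannot be told apart, and this applies to every difference given here.

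Usp18, the ISG15-specific protease, lies at chr6:121245906-121270917 on the plus strand (ENSMUSG00000030107.10) and has 11 exons in its longest coding transcript. Its values in labelled Sirt1-deleted replicates 7, 8, 10, 11 and 12 were 762, 749, 423, 937 and 939.5 normalized counts. Those in control replicates 2 to 6 were 157, 201, 236, 219 and 228. The groups did not overlap, and replicate 10 again stood nearest to the controls. Mean levels were 762 ± 210 and 208 ± 31.4 (SD, n = 5 each), with a log2 difference of 1.83 (SE 0.20, 95% interval 1.40 to 2.25, limma adjusted p = 1.52e-04; exact permutation p = 0.00794). Among all tested genes, 0.884% rose by more.

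Uba7, which activates ISG15 with ATP, lies at chr9:107975505-107984060 on the plus strand (ENSMUSG00000032596.14) and has 24 exons. Labelled Sirt1-deleted replicates 7, 8, 10, 11 and 12 had 3631, 3055, 2178, 3305 and 3099 normalized counts. Control replicates 2 to 6 had 1951, 2002, 2158, 2112 and 1928. The controls kept within a narrow band (coefficient of variation 4.96%), and replicate 10 exceeded the highest of them by a small margin. The group means were 3054 ± 540 and 2030 ± 101 (SD, n = 5 each), and the log2 difference was 0.57 (SE 0.11, 95% interval 0.33 to 0.81, limma adjusted p = 0.00248; exact permutation p = 0.00794). An annotated gene on the same strand, Gm20661, overlaps Uba7, but its mean was only 37.6 normalized counts in the labelled Sirt1-deleted group and 33.5 in controls.

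Herc6, the ligase that does in the mouse the work of human HERC5, lies at chr6:57581000-57664632 on the plus strand (ENSMUSG00000029798.11) and has 23 exons. It measured 2024, 2157, 1677, 2021 and 2066 normalized counts in labelled Sirt1-deleted replicates 7, 8, 10, 11 and 12. Control replicates 2 to 6 measured 1319, 1178, 1132, 1535 and 1296. All but replicate 10 of the labelled Sirt1-deleted group fell between 2021 and 2157, so Herc6 had the smallest relative spread of the members in that group (coefficient of variation 9.19%). The means of 1989 ± 183 and 1292 ± 157 (SD, n = 5 each) gave a log2 difference of 0.63 (SE 0.09, 95% interval 0.43 to 0.82, limma adjusted p = 6.19e-04; exact permutation p = 0.00794). Noncoding genes annotated within Herc6 (Gm45193, Gm19244) and Usp18 (Gm44148) were not analysed here, and whether reads were assigned by strand is not given in the sources used here.

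Ube2l6, the E2 that passes ISG15 from Uba7 to the ligase, lies at chr2:84798828-84810335 on the plus strand (ENSMUSG00000027078.14) and has 4 exons. In labelled Sirt1-deleted replicates 7, 8, 10, 11 and 12 it measured 1113, 607.5, 854, 1559 and 759 normalized counts. Control replicates 2 to 6 had 804, 377, 752, 688 and 936. The groups overlapped, since replicates 8 and 12 lay below the highest 2 controls, and the spread was wide in each group (coefficients of variation 38.1% and 29.2%). The means were 978.5 ± 373 and 711 ± 208 (SD, n = 5 each), and the log2 difference of 0.44 (SE 0.26) had a 95% interval from -0.13 to 1.01 (limma adjusted p = 0.204; exact permutation p = 0.230). That interval contains the log2 differences of Uba7 and Herc6, so the result does not show that Ube2l6 acted otherwise than they did. Leaving out control replicate 3 brought the difference to 0.23 and leaving out labelled Sirt1-deleted replicate 8 brought it to 0.60, and it passed the test in neither case (limma adjusted p = 0.449 and 0.0964).

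**Figure D2:**
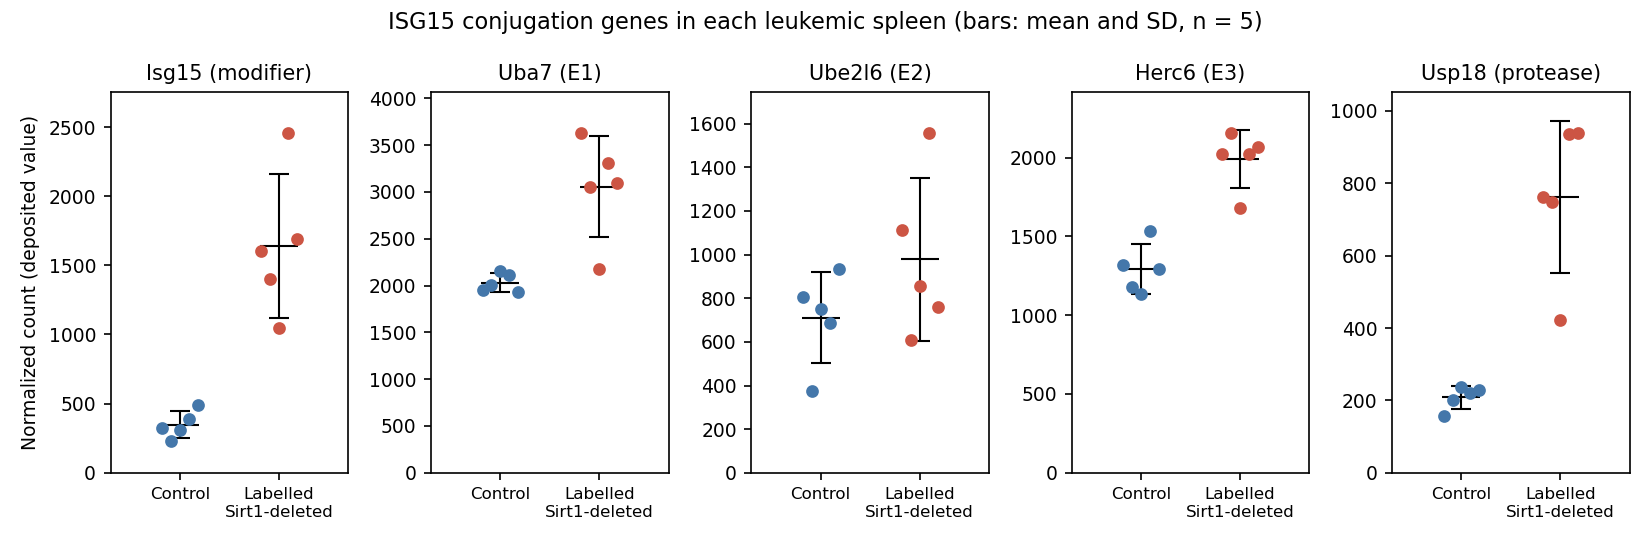
Normalized counts of the 5 genes in each of the 10 samples (points), with the group mean and SD (bars, n = 5), on y axes that start at 0. The groups are apart for Isg15, Uba7, Herc6 and Usp18, most widely for Isg15 (1050 to 2459 against 228 to 489), and overlap for Ube2l6.

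The values of the labelled Sirt1-deleted group lay wholly above those of the controls for 4 of the 5 members, a pattern shown by 11.1% of all tested genes. Labelled Sirt1-deleted replicate 10 had the lowest value of its group in 4 of the 5 members, Ube2l6 being the exception, and it was the highest in 0. Replicate 11 was the highest in 2, Isg15 and Ube2l6. In the control group no sample was lowest in more than 2 members.

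Normalized counts grow with transcript length, so levels of different genes were compared per kilobase of the longest annotated coding transcript, which runs from 756 bases for Isg15 to 4767 for Herc6. In controls the E1 stood first: Uba7 had 635 ± 31.5 normalized counts per kilobase, Isg15 460 ± 129, Ube2l6 456 ± 133, Herc6 271 ± 33.0 and Usp18 118 ± 17.7 (SD, n = 5). Only the step from Herc6 to Usp18 separated the ranges completely. Uba7 exceeded Isg15 in 4 of 5 controls, Isg15 exceeded Ube2l6 in 3 of 5, and Ube2l6 exceeded Herc6 in 4 of 5.

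In the labelled Sirt1-deleted samples the modifier stood first. Isg15 had 2170 ± 687.5 normalized counts per kilobase, with a lowest sample of 1389, and Uba7 followed at 956 ± 169 with a highest sample of 1136 (SD, n = 5). Next came Ube2l6 at 627 ± 239, Usp18 at 430 ± 119 and Herc6 at 417 ± 38.3 normalized counts per kilobase. Ube2l6 exceeded Usp18 in 3 of 5 samples and Usp18 exceeded Herc6 in 3 of 5, so the last 3 could not be put in order beyond their spread.

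Ratios of 2 members within a sample show whether the members changed by the same factor, and they do not depend on library scaling. Isg15 rose relative to each of its enzymes. Its ratio to the E1 Uba7 was 0.441 to 0.744 in the labelled Sirt1-deleted samples and 0.114 to 0.254 in controls, a difference of 1.65 in the mean log2 ratio (SE 0.24; exact permutation p = 0.00794, adjusted p = 0.0159 over the 10 pairs compared). The ratio to the E2 Ube2l6 was 1.23 to 2.30 against 0.401 to 0.605 (difference 1.78, SE 0.21), and that to the E3 Herc6 was 0.626 to 1.22 against 0.194 to 0.378 (difference 1.60, SE 0.23), each with the same exact permutation p and adjusted p. In each of the 3 ratios the groups were fully apart.

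Usp18 also rose relative to the enzymes of the cascade, and its ratio to Isg15 did not pass the test. The ratio of Isg15 to Usp18 was 1.80 to 2.62 in the labelled Sirt1-deleted samples and 1.14 to 2.14 in controls, ranges that overlapped (difference in log2 ratio 0.40, SE 0.21; exact permutation p = 0.103, adjusted p = 0.147). Relative to Usp18, Uba7 fell by 1.26 and Herc6 fell by 1.20 on the log2 scale (exact permutation p = 0.00794 and adjusted p = 0.0159 for each). Ube2l6 relative to Usp18 fell by 1.38 (SE 0.36, exact permutation p = 0.0159, adjusted p = 0.0264), although its ranges of 0.808 to 2.02 and 1.88 to 5.11 overlapped. Among the 3 enzymes, no ratio passed the test. Uba7 to Herc6 was 1.30 to 1.79 and 1.38 to 1.91 (difference in log2 ratio -0.06, SE 0.12, exact permutation p = 0.635), and the ratios with Ube2l6 were less precise, with standard errors of 0.32 for Uba7 to Ube2l6 and 0.33 for Ube2l6 to Herc6.

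**Figure D3:**
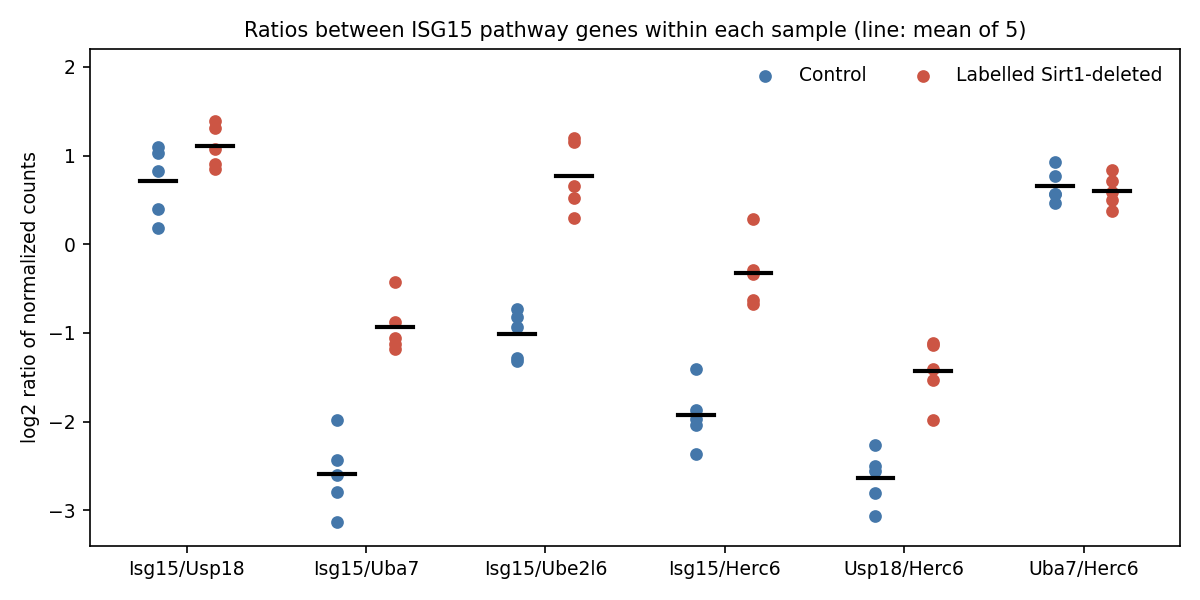
log2 ratio of the normalized counts of 2 members within each sample (points; black lines are means of 5 samples) for 6 ratios. The groups are apart for Isg15 over Uba7, Ube2l6 and Herc6 and for Usp18 over Herc6, and overlap for Isg15 over Usp18 and for Uba7 over Herc6.

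Within groups, the members were compared by their log2 values after subtraction of the group mean. Of the 10 pairs, Uba7 and Usp18 had the highest correlation (r = 0.80, rho = 0.58, n = 10 samples; exact permutation p = 0.0704 and 0.115), followed by Isg15 and Ube2l6 (r = 0.75, rho = 0.71; exact permutation p = 0.0238 and 0.0435). No pair passed the adjustment over the 10 pairs (adjusted p of 0.235 for r in each of these). Without the 2 samples farthest from the median of the x variable, which for these pairs always included labelled Sirt1-deleted replicate 10, r was 0.66 and 0.75. The correlation of Isg15 with Usp18 went from 0.66 to 0.32 and that of Herc6 with Usp18 from 0.45 to -0.03 by the same step, so each rested partly on those samples.

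The sample-to-sample variation of Ube2l6 followed that of erythroid markers. The erythroid score was the mean log2 value of 10 genes of red cell precursors, globins among them; the suspensions had been treated to lyse red cells. Summed erythroid counts ran from 39259 to 154759 in the labelled Sirt1-deleted samples and from 41309 to 127296 in controls, and 0 of the 10 erythroid genes differed between groups. Labelled Sirt1-deleted replicate 8 and control replicate 3 had the lowest erythroid sums and the lowest Ube2l6 of their groups. Replicate 11 and control replicate 6 had the highest of each.

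After subtraction of group means, Ube2l6 correlated with the erythroid score at r = 0.96 and rho = 0.92 (n = 10; exact permutation p = 0.00014 and 0.0009, adjusted p = 0.0063 and 0.0344 over the 45 relations between 5 members and 9 marker lists). The value was 0.96 within the labelled Sirt1-deleted group and 0.98 within controls, and 0.93 without the 2 samples farthest from the median score. Among 10742 genes with a mean of at least 100, 25 had a higher correlation with the score. For Uba7, Herc6 and Usp18 r was 0.09, -0.04 and 0.00, and for Isg15 it was 0.59 (exact permutation p = 0.0997, adjusted p = 0.499).

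A fit with the erythroid score as a covariate, chosen after seeing the data, left the other members nearly where they were and narrowed the interval of Ube2l6. Ube2l6 then had a log2 difference of 0.55 (SE 0.09, 95% interval 0.34 to 0.75, limma adjusted p = 0.00174), which passed the test. Ube2l6 kept that call in 10 of 10 fits that each left out 1 sample, with differences of 0.47 to 0.60. Those fits used the same covariate, so they cannot check its choice. In the same fit Isg15 had 2.28, Usp18 1.83, Herc6 0.62 and Uba7 0.57, and 2448 of all tested genes were called higher. The single value of Ube2l6 that stands as the main result is the one without the covariate.

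**Figure D4:**
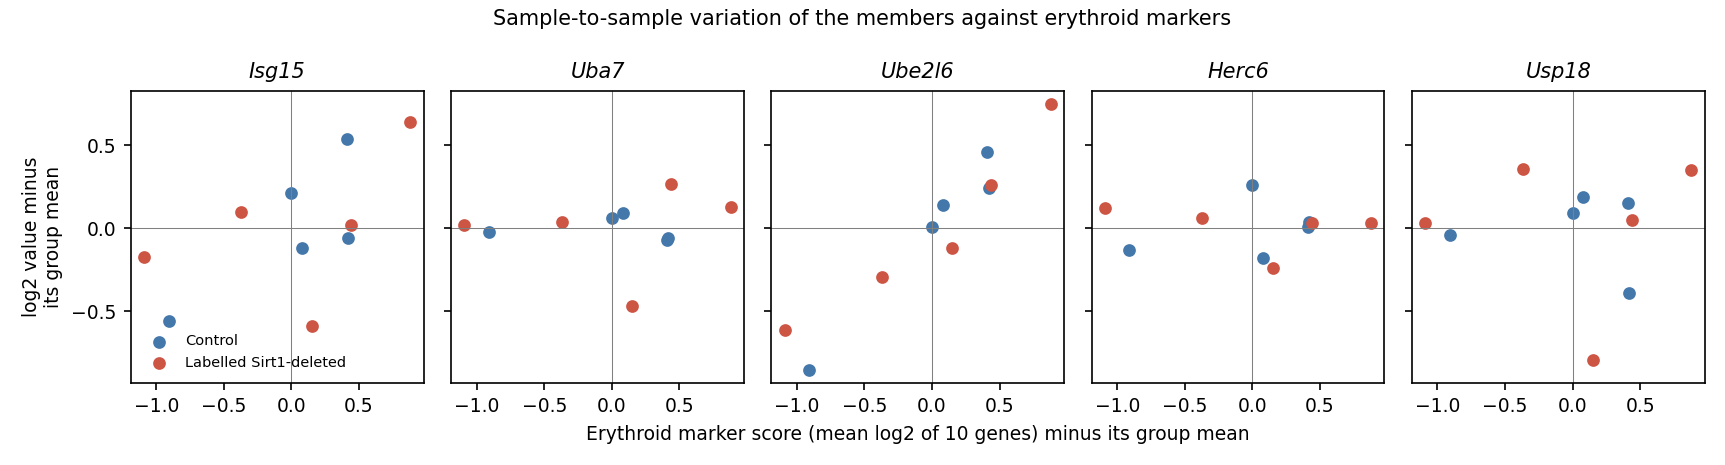
log2 value of each member minus its group mean (y axis) against the erythroid marker score minus its group mean (x axis) in the 10 samples. Ube2l6 follows the score in both groups (r = 0.96), while Uba7, Herc6 and Usp18 do not (r between -0.04 and 0.09).

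The genes whose variation within groups was most like that of the 5 members (mean of the scaled, group-centred values; 10747 candidate genes over 10 samples) were Tbccd1 (r = 0.951), Ifit1 (0.901), Pik3r3 (0.874), Slfn8 (0.867) and Acp5 (0.864). Upper-quartile rescaling and quantile normalization took Slfn8 and Acp5 out of the first 5, with r of 0.864 and 0.866 for Slfn8 and 0.855 and 0.841 for Acp5. The 10 samples share the libraries from which every one of these values comes. Ifit1 and Slfn8, both interferon-inducible, were higher in the labelled Sirt1-deleted group, by log2 differences of 3.26 and 1.37 (limma adjusted p = 3.52e-05 and 1.77e-04). Tbccd1, Pik3r3 and Acp5 did not differ between groups beyond their spread (log2 differences of 0.09, 0.13 and 0.08, limma adjusted p of 0.373, 0.431 and 0.391). Taken singly and chosen after their values were seen, the genes most like each member were Tbccd1 for Isg15 (r = 0.924), Ifi208 for Uba7 (0.949), Ppox for Ube2l6 (0.983), Ldlrad3 for Herc6 (0.881) and Ifit1 for Usp18 (0.945). Ppox encodes an enzyme of heme synthesis. The 5 genes most like Ube2l6 were Ppox, Ccdc71l (r = 0.971), Arl4a (0.968), Rsad2 (0.967) and Hba-a2, an alpha globin (0.966). None of these 5 differed between groups beyond its spread, Rsad2 having the largest log2 difference (0.73, limma adjusted p = 0.155).

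Other ligases and proteases reported to act on ISG15 differed between groups by at most 0.40 on the log2 scale and in opposite directions. Trim25, a ligase for ISG15 and for the RNA sensor RIG-I, had 4827 ± 299 normalized counts in the labelled Sirt1-deleted group and 3890 ± 180 in controls (SD, n = 5; log2 difference 0.31, limma adjusted p = 0.00152). Arih1, a ligase of the ring-between-ring type, had 4898 ± 497 and 6449 ± 518 and fell by 0.40 on the log2 scale (limma adjusted p = 0.00236). Of the 4 remaining HERC genes, Herc4 alone passed (0.29, limma adjusted p = 0.00844), and the list's median was -0.08. Of 5 deubiquitinases reported to react with ISG15, Usp21 was higher (0.29, limma adjusted p = 0.0139), Usp14 was lower (-0.31, limma adjusted p = 0.0267, a call lost in 8 of 22 alternatives), Usp2 and Usp5 did not pass (0.08 and -0.10), and Usp13 had means of 8.23 and 7.44 and was not tested.

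The parallel cascades of ubiquitin and other ubiquitin-like proteins had medians near that of all genes, which was 0.00 on the log2 scale. Among 9 E1 genes, 2 were higher and 1 was lower, with a median of -0.02. Uba3, the catalytic subunit of the NEDD8 E1, fell by 0.25 (limma adjusted p = 0.0144), and Uba1, the main E1 of ubiquitin, had a difference of -0.20 that did not pass (limma adjusted p = 0.0855). Among 19 E2 genes, 5 were higher and 3 lower with a median of 0.00, from Ube2n at 0.33 to Ube2j1 at -0.48. Of these 8 calls, that of Ube2d3 (lower) was lost in 14 of 22 alternatives and that of Ube2r2 (higher) in 11, and the number called lower ran from 2 to 6. Ube2l3, an E2 of ubiquitin that resembles Ube2l6, had 8682 ± 478 and 8849 ± 262 normalized counts (log2 difference -0.03, limma adjusted p = 0.661). Of 13 other modifier genes, 4 were higher and 0 lower with a median of 0.04: Fau (0.40), Nedd8 (0.29), Sumo2 (0.23) and Rps27a (0.19, lost in 8 of 22 alternatives). Ubd, which encodes the interferon-inducible modifier FAT10, was low at 26.2 ± 11.1 and 12.7 ± 4.31 normalized counts and did not pass (0.93, limma adjusted p = 0.0615). Of the LFA-1 subunits, Itgal fell by 0.28 (limma adjusted p = 0.00227) and Itgb2 did not change beyond its spread (0.01, limma adjusted p = 0.967).

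Upstream of the pathway, Irf9 and Stat2, which encode ISGF3 subunits, were higher and several receptor and kinase genes were lower. Irf9 rose by 1.04 on the log2 scale (2650 ± 448 against 1283 ± 164 normalized counts, limma adjusted p = 2.96e-04) and Stat2 by 0.40 (1531 ± 176 against 1160 ± 117, limma adjusted p = 0.00573). Of the kinases, Jak1 fell by 0.35 and Jak2 by 0.45, while Tyk2 did not pass (-0.04). Ifnar1 fell by 0.19 (limma adjusted p = 0.0212, lost in 3 of 22 alternatives), and Ifnar2, to whose product USP18 binds, had 1498 ± 106 and 1479 ± 27.6 normalized counts (0.01, limma adjusted p = 0.857). The interferon gamma receptor genes split, with Ifngr1 lower (-0.42) and Ifngr2 higher (0.39). In all, 4 of the 10 receptor and transducer genes were higher and 4 lower, with a median of -0.01.

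Irf7, the regulatory factor that amplifies type I interferon responses, had a log2 difference of 2.11, beside 2.22 for Isg15. It measured 1815, 2013, 1044, 2099 and 2095 normalized counts in labelled Sirt1-deleted replicates 7, 8, 10, 11 and 12 and 339, 461, 370, 480 and 399 in control replicates 2 to 6. The groups were apart, and replicate 10 was the lowest of its group here too (SE of the difference 0.18, limma adjusted p = 3.52e-05). Irf5 was higher by 0.75, Irf1 by 0.28 and Irf3 by 0.17, and Irf4 fell by 0.59, so 4 of 7 were higher and 1 lower with a median of 0.17. The calls of Irf1 and Irf3 were lost in 8 and 12 of 22 alternatives. Of 7 other negative regulators of interferon signalling, 3 were higher and 4 lower: Socs3 (0.92), Socs1 (0.49) and Ptpn2 (0.14) against Ptpn1 (-0.58), Ptpn11 (-0.29), Ptpn6 (-0.28) and Pias1 (-0.13), the last lost in 13 of 22 alternatives. Their median was -0.13, beside the 1.83 of Usp18. Of 21 interferon genes listed, only 3 were found by symbol among the 20813 genes measured, so the others have no value here. None of these 3 had a group mean above 12.9 normalized counts. Ifng had 7.57 ± 2.04 and 4.44 ± 2.97 (SD, n = 5), Ifnab 1.24 ± 1.17 and 1.20 ± 0.882, and Ifnz 9.57 ± 6.89 and 12.9 ± 5.76, of which only Ifnz passed the filter on low values (limma adjusted p = 0.374).

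**Figure D5:**
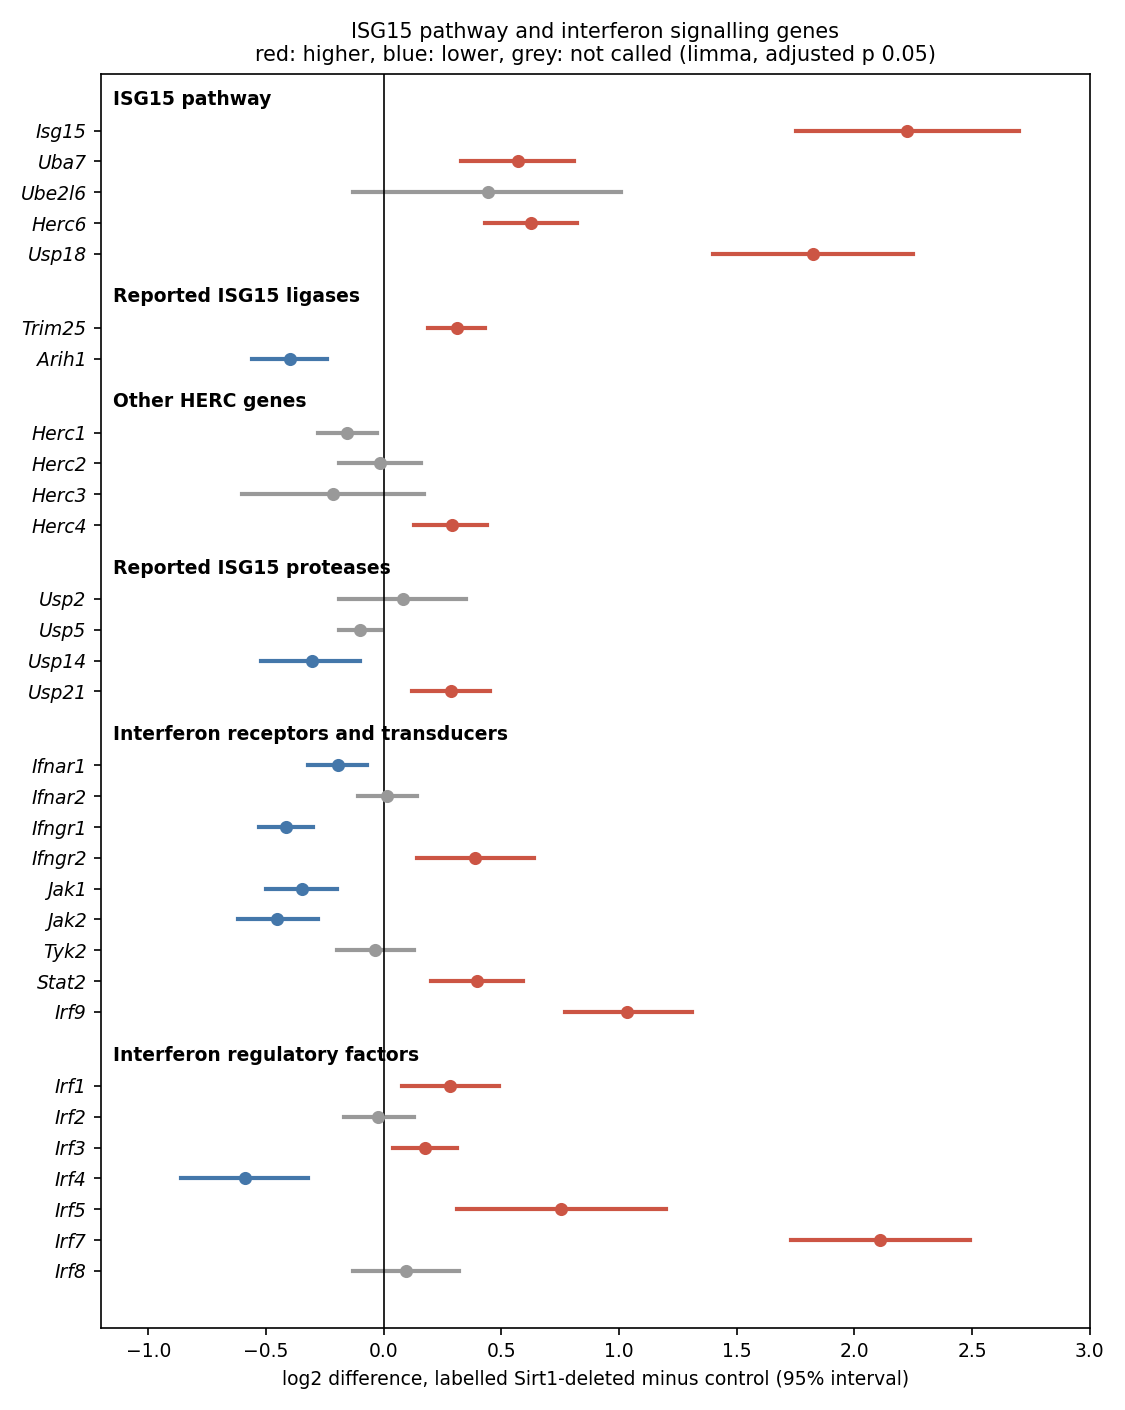
log2 difference between groups (points) with its 95% interval (lines) for the 5 members and for the lists of reported ISG15 ligases, other HERC genes, tested proteases, interferon receptors and transducers (9 of the 10), and interferon regulatory factors. Isg15 (2.22), Irf7 (2.11) and Usp18 (1.83) lie farthest to the right, and the interval of Ube2l6 crosses 0.

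Other interferon-induced families are given beside the members without a test of the difference. Of 6 IFIT genes, 5 were higher and Ifit2 did not pass (-0.12), with a median log2 difference of 2.74. All 8 OAS genes that passed the filter on low values were higher, with a median of 1.59, and Oas1e and Oas1h lay below the filter. The median of the 5 members was 0.63. In the RefSeq windows, 5 of the 6 IFIT genes and 4 of the 8 matched OAS genes held the ISRE pattern. The matched OAS genes included Oas1f and Oas1h, which were not tested. Among the tested genes of the remaining lists, Stat2 and Socs1 held the pattern and were higher. Irf2 and Mocs3 held it too and did not pass (log2 differences of -0.02 and 0.02). Irf7, with a log2 difference of 2.11, had a window without it.

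Markers of other cell types moved with the group and stood beside the rise of Isg15 and Usp18. Of 16 neutrophil markers 15 were higher and 0 lower, and their summed normalized counts were 29182 to 101891 in the labelled Sirt1-deleted samples and 9232 to 12741 in controls. Of 18 macrophage and monocyte markers 16 were higher and 0 lower, with sums of 8266 to 15596 and 4098 to 4636. Labelled Sirt1-deleted replicate 10 had the lowest sum of its group for each of these lists, as it had the lowest Isg15, Uba7, Herc6 and Usp18. This was not particular to these lists. Its sums were also the lowest of the group for T cell (189435), plasmacytoid dendritic cell (3878), conventional dendritic cell (257), B cell (478) and NK cell markers (12610). By score, the mean log2 value of the tested markers, it was the lowest for neutrophil, macrophage and monocyte, conventional dendritic cell, B cell and NK cell lists. For T cell markers replicate 10 scored 12.914, above replicates 7, 8 and 12. For plasmacytoid dendritic cell markers replicate 10 scored 7.522, above the 7.493 of replicate 11. Its erythroid sum (93200) was not the lowest, and its endothelial and stromal sum (5401) was the highest. The part of neutrophils, macrophages and monocytes in the rise of the members was not tested. Within groups, the neutrophil score correlated with Isg15 at r = 0.09, with Usp18 at 0.48, with Herc6 at 0.42 and with Uba7 at 0.58 (n = 10 samples; exact permutation p = 0.881, 0.347, 0.223 and 0.275, with no adjusted p under 0.639 over the 45 relations). The corresponding rho values were -0.07, 0.08, 0.22 and 0.19. Without the 2 samples farthest from the median score, labelled Sirt1-deleted replicates 8 and 10, r was -0.33, -0.01, -0.31 and 0.26. Within the labelled Sirt1-deleted group r was 0.12, 0.46, 0.84 and 0.62. For the macrophage and monocyte score, r over the 10 samples was 0.00, 0.37, 0.37 and 0.41 in the same order of genes. Without replicates 8 and 10 it was -0.41, -0.21, -0.34 and -0.21. Ube2l6 had r of -0.33 with the neutrophil score and -0.44 with the macrophage and monocyte score. Usp18 had r of 0.66 with the B cell score and 0.68 with the NK cell score (exact permutation, adjusted p = 0.488 for each). Their rho values were 0.20 and 0.19. Without labelled Sirt1-deleted replicate 10 and control replicate 4, the 2 samples farthest from the median B cell score, r was 0.54. For the NK cell score, omission of labelled Sirt1-deleted replicate 10 and control replicate 2 took r to -0.59.

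Of 14 T cell markers 2 were higher and 5 lower, with sums of 189435 to 215434 and 176752 to 188665. The sums were higher in the labelled Sirt1-deleted group without overlap, although more markers were lower than higher. Mean log2 values of the 14 markers overlapped, at 12.683 to 12.996 and 12.880 to 12.994. T cell transcripts were abundant in all samples, as the T-ALL label has it. Plasmacytoid dendritic cell markers, of a cell type known for making type I interferon, had 1 of 6 tested genes higher and overlapping sums of 3878 to 5535 and 3847 to 5141, with Klk1 and Cox6a2 below the filter. Conventional dendritic cell markers had 2 of 6 higher, with sums of 257 to 483 and 208 to 282. None of 7 B cell or 4 tested NK cell markers passed. Endothelial and stromal markers had 0 higher and 2 lower of 6, with sums of 4906 to 5401 and 5660 to 6589. Their score, the mean log2 value of the tested markers, overlapped between groups, unlike the sums (6.832 to 8.090 and 6.993 to 7.542). Within groups that score was inversely related to Isg15 (r = -0.79, rho = -0.89, exact permutation p = 0.00576 for r, adjusted p = 0.130 for r and 0.0344 for rho, n = 10). The r was -0.80 for Usp18, -0.74 for Uba7, -0.59 for Herc6 and -0.40 for Ube2l6, with rho of -0.67, -0.39, -0.39 and -0.53 (exact permutation p for r of 0.0334, 0.111, 0.0676 and 0.315; no adjusted p under 0.488). Without the 2 samples farthest from the median of that score, labelled Sirt1-deleted replicates 10 and 11, r was -0.60 for Isg15, -0.34 for Usp18, -0.13 for Uba7, -0.33 for Herc6 and -0.34 for Ube2l6.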

How the data were processed

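RNA of 10 leukemic spleens was sequenced, and 1 table of 20813 genes by 10 samples was used, with 0 columns outside these samples. The deposited signal is the authors' read count per gene divided by DESeq normalization factors. The submitters' processing notes name kallisto 0.44.0, DESeq and mm10, without roles. In each sample, 71.4% to 74.1% of values of at most 8.5 reads were whole to a tolerance of 0.1 reads, too few to recover raw reads, so the depth is unknown, and no count model was run. Totals were 33.66 to 34.47 M normalized counts (M, mega) per sample.

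log2(value + 1) was fitted with limma 3.58.1 in R 4.3.3, with group as the only term and an intensity trend, for the 15276 genes with a mean of at least 10. P-values were adjusted over all of them (threshold 0.05). The fit was tested on simulated data. Single values and ratios were compared by exact two-sided permutation over samples. Coordinates and lengths came from GENCODE M21 (GRCm38) and promoter windows from RefSeq (GRCm38.p6), which may differ from the authors' annotation. The genes named are the 5 members, Sirt1, genes of the context lists, the 5 genes most like the members, and genes most like single members. Individual results of some listed genes are not reported here. The members and all lists were chosen with earlier results of these data known. Alternatives were other pseudocounts (0.1, 5), minimum means (1, 50, none), scalings and limma settings, an exact rank-sum test, omission of samples, and an erythroid covariate added after seeing the data.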

Additional observations from a re-analysis of the deposited data

Results flagged for a closer look

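Herc6 in labelled Sirt1-deleted replicate 10 measured 1677 normalized counts, apart from the 2021 to 2157 of the other samples of its group. The gap was 0.716 of the group's range, above the critical value of 0.71 for 5 samples. The summed neutrophil markers of control replicate 4 reached 12741 normalized counts against 9232 to 9956 in the other controls, a gap of 0.794 of the range. In all 30 sets of 5 samples were examined and 2 stood out, where chance at 1 in 20 gives 1.5.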

How the results depend on the processing

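The calls of Isg15, Uba7, Herc6 and Usp18 held in all 22 alternatives, 10 of which each left out 1 sample, with adjusted p of at most 0.0331 (exact rank-sum test). Their log2 differences with all samples or a pair left out were 2.21 to 2.28, 0.57 to 0.68, 0.62 to 0.70 and 1.81 to 1.97. With 1 sample left out they were 2.06 to 2.37, 0.50 to 0.69, 0.58 to 0.69 and 1.73 to 2.02. Ube2l6 passed only with the erythroid covariate (0.545) and had 0.23 to 0.60 with 1 sample left out. The exact rank-sum test called 1691 genes higher and 1968 lower, fewer than limma's 2562 and 2956. Upper-quartile rescaling called 3162 higher and 2270 lower, with a median of all genes of 0.06. Leaving out 1 sample took 3 ratios that had not passed across 0: Uba7 to Ube2l6 (-0.03 to 0.33), Uba7 to Herc6 (-0.12 to 0.01) and Ube2l6 to Herc6 (-0.36 to 0.00). No paired analysis was possible because no number in the titles occurs in both groups. The planned count models were not run because raw reads were not recovered. Unknown depth, 5 samples a group and the coincidence of drug and label limit every value.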
